A study of Sus scrofa with 12 samples.

Results

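The genes described here are 10 markers of the myofibroblast and of smooth muscle contraction, followed across 12 RNA sequencing libraries of porcine aortic valve interstitial cells (paVICs). They were listed by name, with no threshold on a measured value but with earlier results of these data known, and they were ACTA2, ACTA1, ACTG2, TAGLN, CNN1, MYH11, MYL9, TPM1, TPM2, and CALD1. Of the 31908 genes in the count table, 8 of the 10 were found by the symbol written there. ACTA1 and TPM2 have no symbol in the count table and were found by their identifiers through a table of gene names. All 10 passed the filter on low counts and were among the 13216 genes tested.

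The paVICs are fibroblast-like cells dissected from the leaflets of pig aortic valves and grown on plastic, and each of 3 isolations, made from the valves of several hearts and cultured on its own day, was divided among 4 treatments of 24 h in medium with 1% serum. Cells received vehicle alone, lysophosphatidylcholine (LPC) at 10 μM, dantrolene at 60 μM, or LPC together with dantrolene at these doses, with 3 libraries for each. DMSO at 0.6% and ethanol at 0.1%, the solvents of the agents, were present in every group. LPC is a lysophospholipid found in oxidised lipoproteins that makes these cells form calcific nodules in culture, and dantrolene blocks the ryanodine receptor, the channel that releases calcium from the endoplasmic reticulum. The question put to these genes is whether contractile gene expression differed with LPC, with dantrolene, or with both.

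Valve interstitial cells are mostly quiescent fibroblasts in the healthy leaflet, and in injury, in disease, or on stiff plastic many of them become myofibroblasts. The myofibroblast is recognised by stress fibres that contain smooth muscle α-actin, the product of ACTA2, together with actin-binding and myosin proteins otherwise typical of smooth muscle. Most of these genes are controlled by serum response factor (SRF) with its cofactors of the myocardin family, which respond to actin polymerisation and TGF-β.

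Total counts per library lay between 16489684 and 24105935, and expression is given as TMM-scaled CPM, counts set relative to the size of the library, with 3 counts worth 0.114 to 0.186 CPM. The authors had already adjusted the counts for the isolation, so isolation means were drawn together before deposit, and adjusted p-values may be too small, since the tests take no account of that step. Of 10 fibroblast markers written down for valve interstitial cells, all 10 passed the filter, and their summed level was 44542 to 81806 CPM per library. Markers of other cells were far lower in sum, at 56.3 to 108 CPM for 7 endothelial genes, 493 to 1349 CPM for 7 smooth muscle and pericyte genes, 0.923 to 4.47 CPM for the striated muscle genes, and 12.4 to 27.3 CPM for the blood cell genes. The fibroblast sum was mainly COL1A1, COL1A2, COL3A1, and VIM. In vehicle, PDGFRA, DCN, LUM, and POSTN had means of 19.2 to 175 CPM, and PDGFRB and THY1 of 612 CPM each. DES of the smooth muscle list had 582 CPM, and that list leaves out the members. These sums therefore do not give the share of each cell type. TNNT2, the cardiac troponin T, and the blood cell genes PTPRC, CD3E, and HBB were at 0 in every library. Replicate 2 of LPC + dantrolene stood apart from the other 2 libraries of its group for ACTA2, TAGLN, MYH11, and MYL9. The comparisons with LPC + dantrolene are also given without replicate 2 where it moves them.

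The first group of genes is the muscle actins. ACTA2 (ENSSSCG00000010447, Sscrofa11.1 chr14:100868145-100886732) encodes smooth muscle α-actin, ACTA1 (ENSSSCG00000010190, chr14:60412651-60415687) encodes skeletal muscle α-actin, and ACTG2 (ENSSSCG00000008294, chr3:69097366-69121542) encodes enteric smooth muscle γ-actin. The positions span each whole gene with its introns and come from RefSeq by symbol. The coding sequences of these actins are nearly the same, so reads can be shared between them, and how the counting dealt with such reads was not analysed here.

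ACTA2 had 15914, 17218, and 23133 CPM in vehicle replicates 1, 2, and 3. It had 10236, 13404, and 17412 CPM with LPC, and 15788, 10264, and 11472 CPM with dantrolene. With LPC + dantrolene it had 8982, 23558, and 6248 CPM, so replicate 2 of that group was the highest of all 12 libraries and replicate 3 the lowest. The dantrolene libraries all lay below the vehicle libraries, by a margin of 15788 against 15914 CPM, while the LPC and LPC + dantrolene libraries overlapped with vehicle. ACTA2 and ACTA1 were the 2 members whose dantrolene libraries lay wholly below vehicle, where 11% of all genes did. With the quasi-likelihood test of edgeR and adjustment over all genes tested (Benjamini-Hochberg), the log2 fold change against vehicle was −0.45 with LPC (SE 0.34, adjusted p = 0.584), −0.58 with dantrolene (SE 0.34, adjusted p = 0.432), and −0.54 with LPC + dantrolene (SE 0.34, adjusted p = 0.569). The 95% interval for dantrolene ran from −1.26 to 0.09. No difference in ACTA2 was called in any of these comparisons.

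ACTA1 was the member with the largest difference. It had 332, 274, and 463 CPM in vehicle and 171, 219, and 466 CPM with LPC. It had 111, 61.5, and 53.2 CPM with dantrolene and 63.4, 180, and 17.8 CPM with LPC + dantrolene. The means were 356 ± 96.8, 285 ± 158, 75.1 ± 31.1, and 87.0 ± 83.5 CPM in the order vehicle, LPC, dantrolene, LPC + dantrolene (SD, n = 3). The dantrolene libraries all lay below the vehicle and the LPC libraries. In the LPC + dantrolene group all 3 libraries lay below vehicle, as was true of 5.74% of all genes, but replicate 2 was above LPC replicate 1.

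ACTA1 fell with dantrolene against vehicle by 2.25 on the log2 scale (SE 0.41, 95% interval −3.06 to −1.43, edgeR adjusted p = 4.93e-05). It was the only member called lower, where 1.26% of all genes tested were called lower. Among the 166 genes called lower, ACTA1 ranked 4 by p-value. The log2 ratio within isolations 1, 2, and 3 was −1.58, −2.15, and −3.12. Since all dantrolene libraries lay below all vehicle libraries, any pairing would give a drop in 3 of 3 isolations.

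ACTA1 also fell with LPC + dantrolene against vehicle by 2.04 on the log2 scale (SE 0.41, edgeR adjusted p = 0.000199), again as the only member called lower, where 0.9% of all genes were called lower. Without replicate 2 of LPC + dantrolene the log2 fold change was −3.06 (SE 0.41, edgeR adjusted p = 2.91e-08). DESeq2 did not call this difference (adjusted p = 0.084). The dantrolene and the LPC + dantrolene comparisons share the vehicle libraries, so they are not independent of each other.

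Against LPC alone, ACTA1 fell with LPC + dantrolene by 1.71 on the log2 scale (SE 0.40, edgeR adjusted p = 0.017), in a comparison where 0.288% of all genes were called lower. The within-isolation log2 ratios were −1.43, −0.29, and −4.71, so the size differed widely between isolations. This call held in 9 of 20 alternatives. It was lost with the isolation as a block (log2 fold change −1.82, adjusted p = 0.205) and with DESeq2 (adjusted p = 0.511). It was also lost with total counts in place of TMM factors and when only the groups compared were fitted. Leaving out vehicle replicate 1 or 2, any 1 of the LPC libraries, or LPC + dantrolene replicate 1 or 3 lost it too (adjusted p from 0.0635 to 0.314). The log2 fold change was −1.17 without LPC replicate 3 and −1.23 without LPC + dantrolene replicate 3. It was −2.82 (adjusted p = 6.58e-06) without LPC + dantrolene replicate 2. LPC alone gave a log2 fold change of −0.32 against vehicle (SE 0.39, adjusted p = 0.714), and the interaction, which is the LPC difference with dantrolene less the LPC difference without it, was 0.53 (95% interval −0.57 to 1.63, adjusted p = 0.692). Without LPC + dantrolene replicate 2 the interaction of ACTA1 was −0.64 (adjusted p = 0.787), so its sign was not settled.

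ACTG2 had 373, 851, and 858 CPM in vehicle, 576, 398, and 745 CPM with LPC, 485, 562, and 454 CPM with dantrolene, and 559, 623, and 243 CPM with LPC + dantrolene. All treated groups overlapped with vehicle, whose replicate 1 was the low library. The log2 fold changes against vehicle were −0.28, −0.47, and −0.55 for LPC, dantrolene, and LPC + dantrolene (edgeR adjusted p = 0.719, 0.585, and 0.559).

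**Figure D1:**
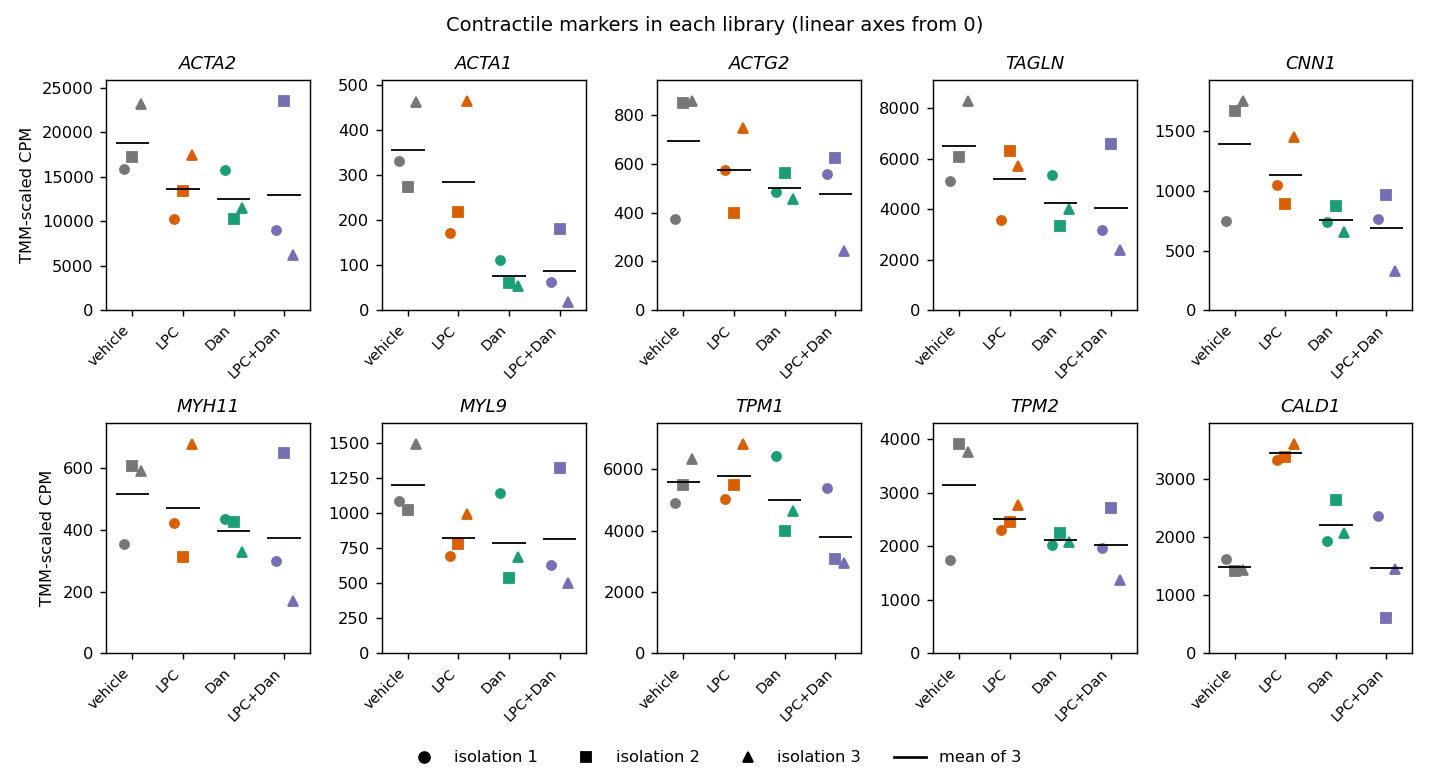
TMM-scaled CPM of the 10 markers in each of 12 libraries, on linear axes that start at 0, with the isolation shown by the symbol and the mean of 3 libraries by the line (Dan, dantrolene). ACTA1 is below all vehicle libraries in the 6 libraries with dantrolene, CALD1 is high in the 3 LPC libraries, and isolation 2 of LPC + dantrolene is the highest library of the panel for ACTA2 and the lowest for CALD1.

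The composition of the muscle actin counts separated the libraries by dantrolene. Of the counts on ACTA1, ACTA2, and ACTG2, not corrected for transcript length, ACTA1 held 2.00, 1.49, and 1.89% in vehicle and 1.55, 1.56, and 2.50% with LPC. It held 0.676, 0.565, and 0.444% with dantrolene and 0.660, 0.738, and 0.273% with LPC + dantrolene. The 6 libraries without dantrolene thus lay between 1.49 and 2.50%, and the 6 libraries with it between 0.273 and 0.738%, with no overlap. Replicate 2 of LPC + dantrolene, in which ACTA2 was highest, had a share of 0.738% and lay with the other dantrolene libraries. The share is a description that was chosen with the ACTA1 values in view and carries no test. The share of ACTA2 did not separate the libraries, with 93.2 to 95.8% without and 93.5 to 96.7% with dantrolene, nor did that of ACTG2, with 2.24 to 5.25% and 2.56 to 5.82%.

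**Figure D2:**
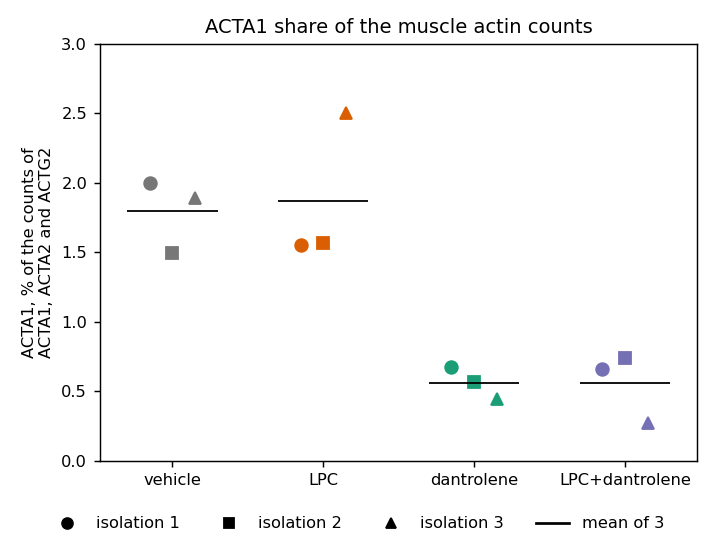
Share of ACTA1 among the counts of ACTA1, ACTA2, and ACTG2 in each library, in percent, with the isolation shown by the symbol and the mean of 3 libraries by the line. The vehicle and LPC libraries lie at 1.49 to 2.50% and the libraries with dantrolene at 0.273 to 0.738%.

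The second group binds or moves actin filaments. TAGLN (ENSSSCG00000015073, chr9:44561756-44567385) encodes transgelin, an actin cross-linking protein, and CNN1 (ENSSSCG00000013614, chr2:70183370-70190756) encodes calponin 1, which restrains the myosin ATPase. MYH11 (ENSSSCG00000000146) encodes smooth muscle myosin heavy chain, and its identity here is uncertain, since it rests on the symbol in the count table while the identifier adjoins that of the non-muscle paralog MYH9. MYL9 (ENSSSCG00000036402, chr17:39788165-39795240) encodes the regulatory light chain that is phosphorylated to start contraction.

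TAGLN had 5108, 6045, and 8289 CPM in vehicle, 3557, 6316, and 5694 CPM with LPC, 5336, 3346, and 4004 CPM with dantrolene, and 3188, 6559, and 2392 CPM with LPC + dantrolene. As with ACTA2, replicate 2 of LPC + dantrolene was the high library of its group. The log2 fold change against vehicle was −0.32 with LPC, −0.62 with dantrolene, and −0.68 with LPC + dantrolene (edgeR adjusted p = 0.677, 0.384, and 0.333), and no difference was called.

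CNN1 had 749, 1671, and 1758 CPM in vehicle, 1054, 887, and 1454 CPM with LPC, 743, 878, and 660 CPM with dantrolene, and 766, 964, and 329 CPM with LPC + dantrolene. The vehicle group held 1 low library, replicate 1, which overlapped with the treated groups. The log2 fold change was −0.87 with dantrolene (SE 0.35, 95% interval −1.56 to −0.18, edgeR adjusted p = 0.122) and −1.02 with LPC + dantrolene (SE 0.35, 95% interval −1.71 to −0.33, adjusted p = 0.0581), both short of the threshold of 0.05.

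MYH11 had 353, 606, and 590 CPM in vehicle and 420, 311, and 677 CPM with LPC. With dantrolene it had 434, 426, and 328 CPM, and with LPC + dantrolene 299, 646, and 171 CPM, and all treated groups overlapped with vehicle. Its log2 fold changes against vehicle were −0.14, −0.38, and −0.47 for LPC, dantrolene, and LPC + dantrolene (edgeR adjusted p = 0.858, 0.691, and 0.69).

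MYL9 had 1084, 1022, and 1492 CPM in vehicle and 695, 783, and 992 CPM with LPC, so the LPC libraries all lay below vehicle. MYL9 had 1144, 536, and 686 CPM with dantrolene and 630, 1318, and 503 CPM with LPC + dantrolene. The log2 fold change of MYL9 with LPC was −0.54 (SE 0.34, edgeR adjusted p = 0.502), so the separation from vehicle did not amount to a call, and it was −0.60 with dantrolene and −0.55 with LPC + dantrolene (adjusted p = 0.407 and 0.545). MYL9 was the only member whose LPC libraries lay wholly below vehicle, where 10.6% of all genes did.

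The third group covers or regulates the thin filament. TPM1 (ENSSSCG00000004570, chr1:108986981-109016090) and TPM2 (ENSSSCG00000005316, chr1:236402249-236410390) encode tropomyosins, which lie along the actin filament, and CALD1 (ENSSSCG00000016535, chr18:14267955-14486641) encodes caldesmon, which binds actin, tropomyosin, and myosin and restrains their interaction. TPM1 and CALD1 are spliced into muscle and non-muscle forms, which counts per gene do not tell apart.

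CALD1 had 1613, 1415, and 1440 CPM in vehicle and 3323, 3378, and 3597 CPM with LPC. It had 1923, 2639, and 2069 CPM with dantrolene and 2359, 605, and 1451 CPM with LPC + dantrolene. The means were 1489 ± 108, 3433 ± 145, 2210 ± 378, and 1472 ± 877 CPM (SD, n = 3). The LPC libraries lay above all other libraries and close to each other, and 16.6% of all genes likewise had their LPC libraries wholly above vehicle. The dantrolene libraries lay between those of vehicle and LPC with no overlap. The LPC + dantrolene libraries spread from below vehicle to above the mean of dantrolene.

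CALD1 rose with LPC against vehicle by 1.20 on the log2 scale (SE 0.34, 95% interval 0.52 to 1.89, edgeR adjusted p = 0.0115), with log2 ratios of 1.04 or more in all 3 isolations. It was the only member called higher, where 8.54% of all genes tested were called higher, and 1 of 10 is near that background. No member was called lower with LPC by edgeR or by DESeq2, where 0.144% of all genes were called lower by edgeR, and CALD1 was the only member with an unadjusted p under 0.05. The call was lost without vehicle replicate 2 (edgeR adjusted p = 0.0963) and without LPC replicate 2 (adjusted p = 0.0653). For dantrolene alone the log2 fold change of CALD1 was 0.57 (SE 0.34, adjusted p = 0.448), with all 3 libraries above vehicle, as was true of 16.1% of all genes.

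The difference that LPC made in CALD1 was lower with dantrolene present than without it. The log2 fold change of LPC + dantrolene was −0.59 against dantrolene (SE 0.34, edgeR adjusted p = 1), or −0.22 without replicate 2 of LPC + dantrolene, and the interaction was −1.79 (SE 0.48, 95% interval −2.75 to −0.83, adjusted p = 0.0143). CALD1 was the only member with a called interaction, where 4.49% of all genes had an interaction called below 0. Without replicate 2 of LPC + dantrolene the interaction was −1.49 (edgeR adjusted p = 0.0157), and adding the isolation as a block to that fit gave −1.49 with an adjusted p of 0.0604. The call was also lost without vehicle replicate 2, LPC replicate 1 or 2, or dantrolene replicate 2 (adjusted p from 0.0517 to 0.111). Against LPC alone, the LPC + dantrolene value was −1.22 for CALD1 (SE 0.34, adjusted p = 0.0888), and all 3 libraries lay below LPC, as was true of 4.93% of all genes. Without replicate 2 it was −0.86 (adjusted p = 0.217).

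TPM1 had 4920, 5494, and 6338 CPM in vehicle, 5049, 5486, and 6831 CPM with LPC, 6431, 3976, and 4632 CPM with dantrolene, and 5394, 3072, and 2945 CPM with LPC + dantrolene. Its log2 fold changes against vehicle were 0.05, −0.16, and −0.55 (edgeR adjusted p = 0.945, 0.865, and 0.497). TPM2 had 1752, 3909, and 3757 CPM in vehicle, 2296, 2452, and 2773 CPM with LPC, 2015, 2240, and 2070 CPM with dantrolene, and 1971, 2714, and 1366 CPM with LPC + dantrolene. Vehicle replicate 1 was low for TPM2, as it was for ACTG2 and CNN1, and no difference in either tropomyosin was called.

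**Figure D3:**
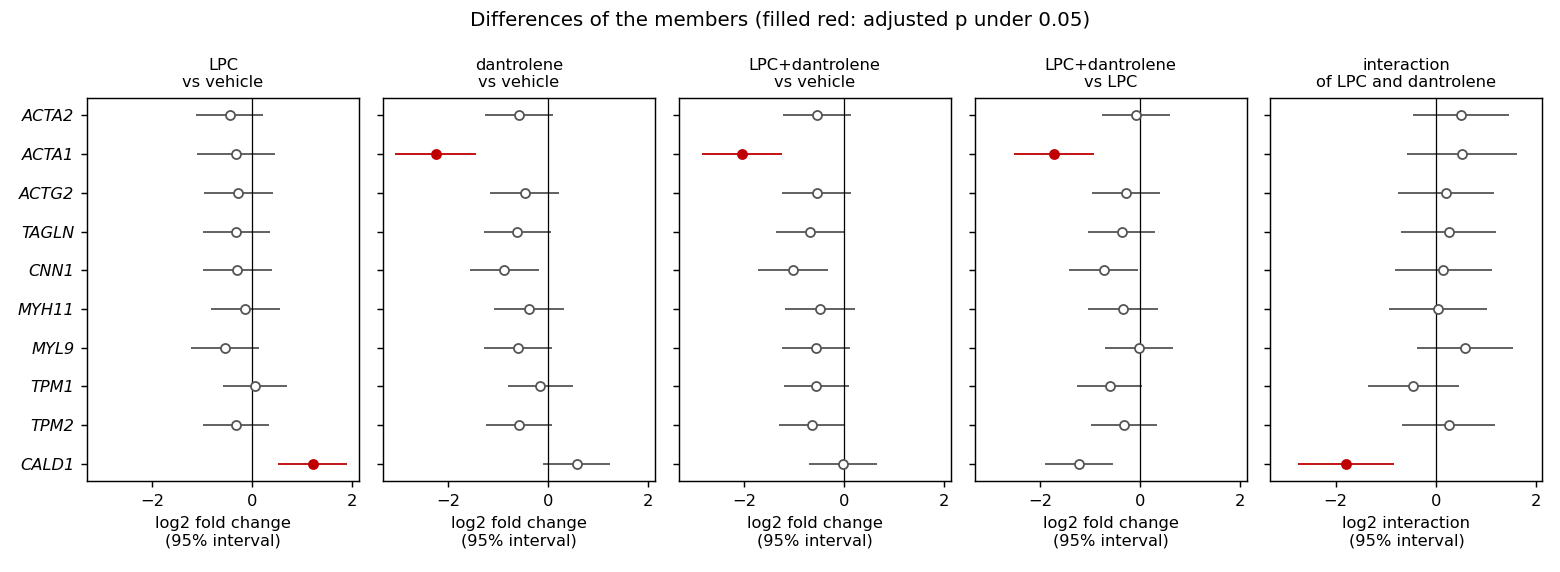
Log2 fold changes of the 10 markers in 4 comparisons, and their log2 interaction, each with its 95% interval from the edgeR fit, where filled red points passed an adjusted p under 0.05. ACTA1 is the red point of the 3 comparisons with dantrolene, and CALD1 is the red point with LPC against vehicle and in the interaction. All other points are open, among them CNN1 with LPC + dantrolene and CALD1 against LPC, whose intervals do not include 0.

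Across the 10 markers the fitted differences against vehicle were mostly below 0, at 8 of 10 with LPC, 9 of 10 with dantrolene, and 10 of 10 with LPC + dantrolene. The median log2 fold change of the members was −0.31, −0.58, and −0.55 in these comparisons, beside −0.18, −0.11, and −0.08 over all genes tested. The zero point depends on the scaling. With total counts in place of TMM factors the medians over all genes were −0.0023, 0.13, and 0.12, the members' medians were −0.14, −0.34, and −0.42, and the counts below 0 were 7, 8, and 9, since MYH11 with LPC, TPM1 with dantrolene, and CALD1 with LPC + dantrolene were then above 0. CALD1 with LPC + dantrolene was also above 0 with RLE size factors. The 3 comparisons share the vehicle libraries, and the directions are a description of the list.

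The comparison of LPC + dantrolene with vehicle depended on which library of the combined group was left out. Without replicate 2 of LPC + dantrolene, 6 members were called lower in edgeR, where 2.89% of all genes were called lower in that fit. These were ACTA2 (log2 fold change −1.24, SE 0.30, adjusted p = 0.00163), ACTA1 (given above), TAGLN (−1.15, SE 0.31, adjusted p = 0.00466), CNN1 (−1.28, SE 0.34, adjusted p = 0.0038), MYH11 (−1.07, SE 0.32, adjusted p = 0.0126), and MYL9 (−1.02, SE 0.32, adjusted p = 0.0157). ACTG2 (−0.72), TPM1 (−0.36), TPM2 (−0.85), and CALD1 (0.41) were not called, with adjusted p between 0.0521 and 0.492. With all 12 libraries only ACTA1 was called. Without replicate 3 of LPC + dantrolene it was likewise the only member called, and CNN1 had an edgeR adjusted p of 0.67. Over all 20 alternatives the log2 fold change of ACTA2 in this comparison ranged from −1.30 to −0.21. In replicate 2, ACTA2 and MYH11 were above all 3 vehicle libraries, TAGLN and MYL9 were above 2 of them, and CNN1 was above 1. Replicate 2 was singled out by its values of ACTA2, TAGLN, MYH11, and MYL9. The calls of these genes without it are therefore no separate support for a difference. Leaving out 1 library of the group assumes that the remaining 2 vary like the other groups. Which of the 3 libraries represents the treatment was not tested.

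Against LPC, LPC + dantrolene gave fitted differences below 0 for 10 of 10 members (9 of 10 with RLE size factors, where MYL9 was above 0), with a median of −0.35 beside 0.017 over all genes, and only ACTA1 was called. Without replicate 2, which was singled out by values of the members, the median was −0.86. ACTA1 was again the only member called, where 0.641% of all genes were called lower. Against dantrolene, no member was called with LPC + dantrolene by edgeR or by DESeq2, and 0 members had an unadjusted p under 0.05. In that comparison 0.0227% of all genes were called in either direction.

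The markers also differed in how they varied from library to library. Over the 12 libraries, log2 CPM of ACTA2 had a Pearson correlation of 0.95 with TAGLN and 0.949 with MYL9, and for each of these 3 the 2 highest libraries were replicate 2 of LPC + dantrolene and vehicle replicate 3. ACTG2, CNN1, and TPM2 varied together, with correlations of 0.936 for ACTG2 and CNN1, 0.94 for CNN1 and TPM2, and 0.903 for ACTG2 and TPM2. MYH11 lay between them, at 0.852 with ACTA2 and 0.895 with ACTG2. ACTA1 and ACTA2 were at 0.831 before and 0.941 after the group means were removed. TPM1 had a correlation of 0.377 with ACTA2, and CALD1 had −0.396 before and −0.726 after the group means were removed. These values of TPM1 and CALD1 rest on replicate 2 of LPC + dantrolene, since over the other 11 libraries they were 0.817 for TPM1 and −0.118 and 0.116 for CALD1. Without that library ACTA2 stayed at 0.958 with TAGLN and 0.941 with MYL9. These correlations are descriptions, since the libraries share groups, isolations, and the scaling.

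**Figure D4:**
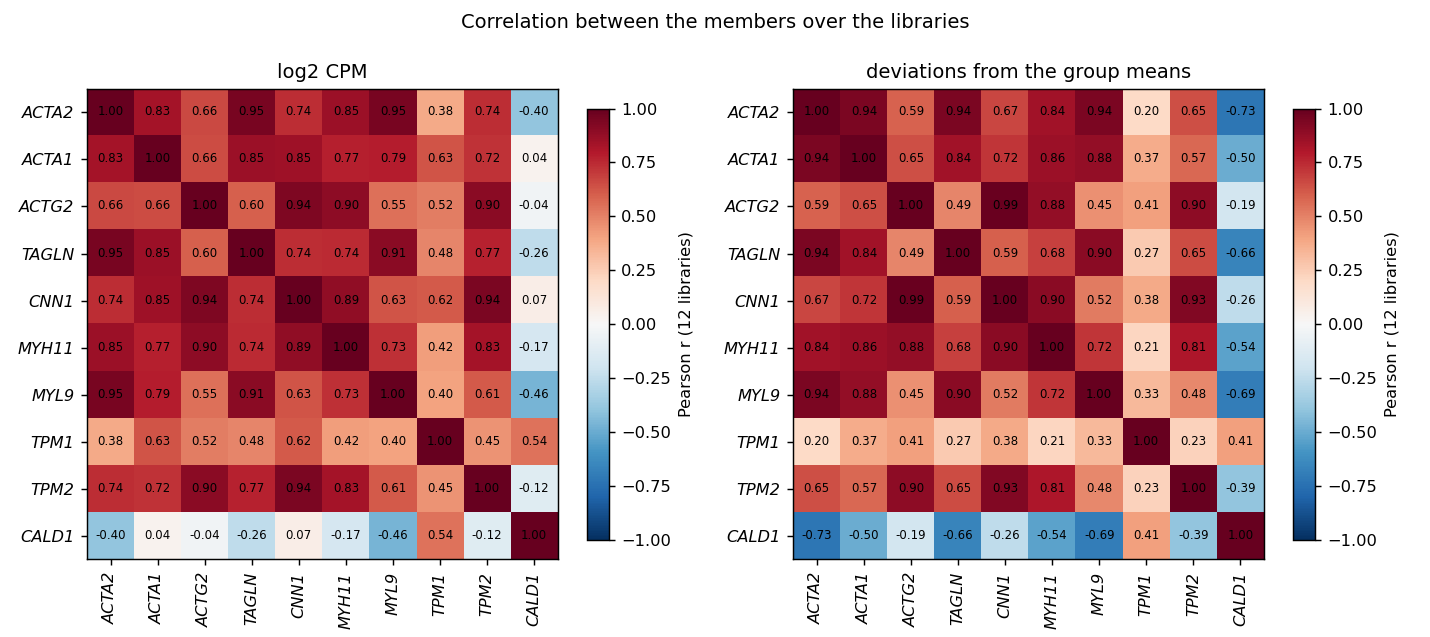
Pearson correlation between the 10 markers over 12 libraries, on the left for log2 CPM and on the right for deviations from the group means. ACTA2, TAGLN, and MYL9 are at 0.90 or above with each other in both panels, and the CALD1 row is the one with mostly negative values, which for ACTA2 were −0.118 and 0.116 without replicate 2 of LPC + dantrolene.

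Of 8912 genes with a symbol and a mean of at least 5 CPM, those most like ACTA2 over the 12 libraries were PALD1 and SMTN (both r = 0.977), FHL1 (0.962), KCNE1 (0.959), and CCN1 (0.955). SMTN encodes smoothelin, a protein of smooth muscle stress fibres, and FHL1 encodes a LIM domain protein that binds the contractile apparatus. Among the members, TAGLN ranked 8, MYL9 ranked 9, MYH11 ranked 137, and ACTA1 ranked 188 by this measure, and CALD1 ranked 6234. SMTN was at 785 ± 163, 583 ± 171, 460 ± 131, and 511 ± 371 CPM in vehicle, LPC, dantrolene, and LPC + dantrolene.

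Of 15 paralogs of the members, mostly non-muscle forms, 11 were tested, among them ACTB and ACTG1, the cytoplasmic actins, and MYH9, the non-muscle myosin heavy chain. None was called by edgeR with LPC, where 0 had an unadjusted p under 0.05, or with dantrolene, where 2 had, and DESeq2 called 0 in both. With 8.54% of all genes called higher and 0.144% lower with LPC, and 7.54% and 1.26% with dantrolene, 0 of 11 is near the background. The log2 fold change of ACTB was −0.27 with LPC and −0.43 with dantrolene (edgeR adjusted p = 0.717 and 0.612). ACTC1, the cardiac actin, was called lower with LPC + dantrolene (−3.46, adjusted p = 0.0439), but it had at most 2.38 CPM in any library and the call was lost in each of 19 alternative fits.

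Among 22 other genes of the contractile apparatus, 20 were tested. With LPC 4 of them were called higher, where 8.54% of all genes were, and these included PPP1R12A, the targeting subunit of the phosphatase that acts on myosin light chains (log2 fold change 1.22, SE 0.34, edgeR adjusted p = 0.00816), and SYNPO2, an actin-bundling protein of muscle (1.22, SE 0.34, adjusted p = 0.00882). PPP1R12A had 110, 73.1, and 64.2 CPM in vehicle and 205, 178, and 192 CPM with LPC. SYNPO2 had 195, 148, and 171 CPM in vehicle and 352, 313, and 536 CPM with LPC. For both genes the LPC libraries all lay above vehicle, as was true of 16.6% of all genes. The call of SYNPO2 held in 18 of 20 alternatives and that of PPP1R12A in 17. SYNPO2 was lost without vehicle replicate 2 or LPC replicate 3, and PPP1R12A without vehicle replicate 2 or 3 or LPC replicate 1 (adjusted p up to 0.13 and 0.0982).

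With dantrolene alone, 2 of 20 genes of the list were called higher and 1 lower, and with LPC + dantrolene likewise 2 higher and 1 lower. Of all genes tested, 1.26% were called lower with dantrolene and 0.9% with LPC + dantrolene. The gene of the list called lower in both was DES. DES, which encodes the intermediate filament desmin, fell by 1.30 with dantrolene (edgeR adjusted p = 0.0117) and by 1.63 with LPC + dantrolene (adjusted p = 0.00114) on the log2 scale, with libraries that overlapped with vehicle. The call with dantrolene was lost in 5 of 20 alternatives, among them without vehicle replicate 2 or 3 and without dantrolene replicate 1 (adjusted p up to 0.187), and that with LPC + dantrolene only with DESeq2 (adjusted p = 0.0542). With dantrolene the log2 fold change was 0.73 for PPP1R12A (adjusted p = 0.221) and 0.61 for SYNPO2 (adjusted p = 0.391), where 7.54% of all genes were called higher. With LPC + dantrolene it was 0.57 for PPP1R12A (adjusted p = 0.493) and 0.14 for SYNPO2 (adjusted p = 0.961), where 6.23% of all genes were called higher.

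The interaction was called below 0 for 3 of 20 genes of the list, where 4.49% of all genes had an interaction called below 0. SYNPO2 was among them (−1.69, SE 0.48, edgeR adjusted p = 0.0207), as for CALD1. The call was lost in 7 of 19 alternatives, among them without vehicle replicate 2, any 1 of the LPC libraries, or dantrolene replicate 2 (adjusted p up to 0.161). For PPP1R12A the interaction was −1.38 (SE 0.47, adjusted p = 0.0751).

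**Figure D5:**
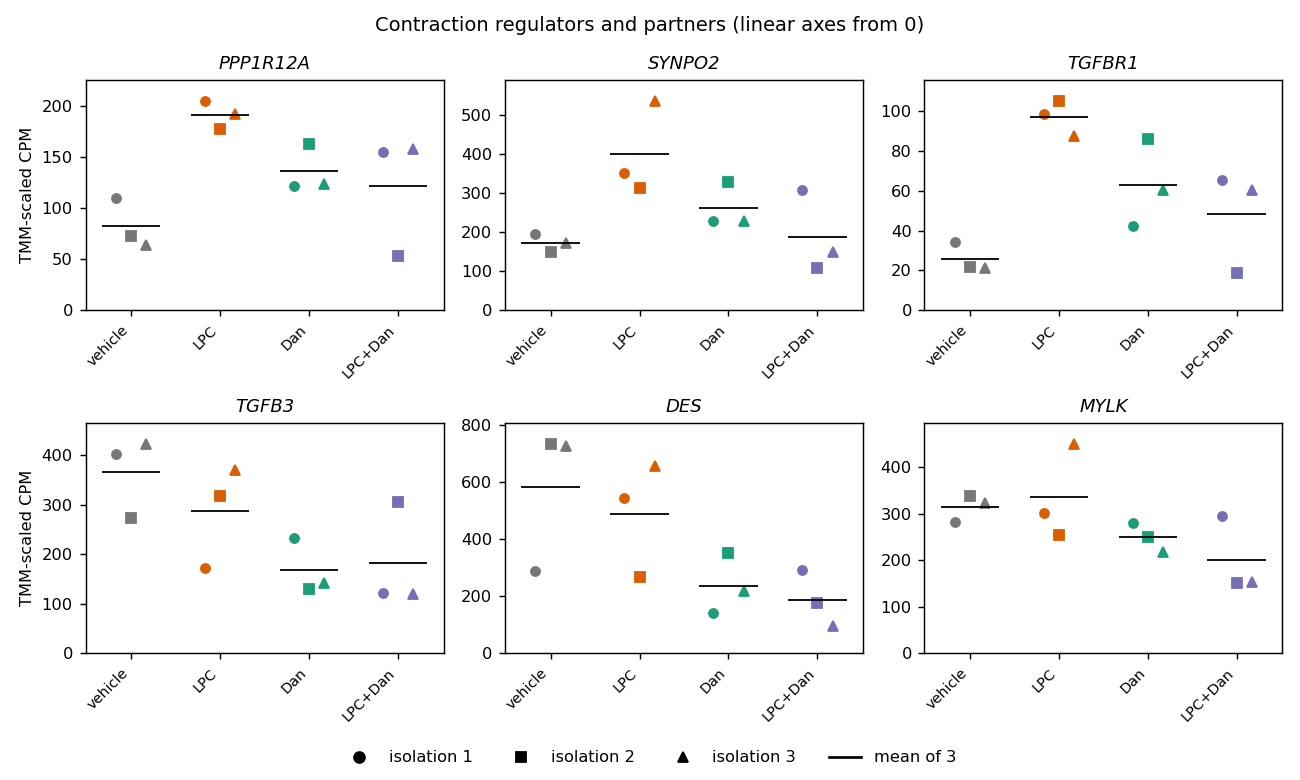
TMM-scaled CPM of 6 genes that regulate or accompany contraction, in each of 12 libraries, on linear axes that start at 0, with the isolation shown by the symbol and the mean of 3 libraries by the line (Dan, dantrolene). PPP1R12A, SYNPO2, and TGFBR1 are higher in all 3 LPC libraries than in vehicle, as were 16.6% of all genes. TGFB3 and MYLK are lower in all 3 dantrolene libraries than in vehicle, as were 11% of all genes.

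Of 16 transcription factors and TGF-β signalling genes that control the members, 15 were tested. With LPC 1 was called higher, where 8.54% of all genes were. With dantrolene 1 was called higher and 1 lower, where 7.54% and 1.26% of all genes were. The interaction was called below 0 for 1, where 4.49% of all genes had such a call. For the genes called higher and for the interaction, 1 of 15 is near these shares. TGFBR1, the type I TGF-β receptor, had 34.5, 21.6, and 21.0 CPM in vehicle and 98.7, 105, and 87.4 CPM with LPC, and rose by 1.92 on the log2 scale (SE 0.36, edgeR adjusted p = 4.03e-05). It also rose with dantrolene by 1.29 (adjusted p = 0.00755), and its interaction was −2.30 (adjusted p = 0.00191). With LPC + dantrolene it was at 0.91 against vehicle (adjusted p = 0.114). The dantrolene call was lost without vehicle replicate 2, vehicle replicate 3, or dantrolene replicate 2 (adjusted p up to 0.168), and the interaction without LPC replicate 2 or dantrolene replicate 2 (up to 0.0837).

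TGFB3, a TGF-β ligand, fell by 1.12 with dantrolene on the log2 scale (edgeR adjusted p = 0.025), a call that held in 12 of 20 alternatives. It was lost with the isolation as a block (adjusted p = 0.0717), with DESeq2 (adjusted p = 0.0629), and with total counts in place of TMM factors. It was also lost without vehicle replicate 1 or 3, LPC replicate 2, or dantrolene replicate 2 or 3 (adjusted p up to 0.244). SRF had 63.5, 137, and 109 CPM in vehicle and 64.5, 87.8, and 79.7 CPM with dantrolene, and it was not called in any comparison. The myocardin family was not called either, and the nearest to the threshold was MRTFA with dantrolene (−0.95, adjusted p = 0.0708). For LPC + dantrolene against LPC, neither edgeR nor DESeq2 called a gene of the contractile or the regulator list, and 3 and 2 of their genes had an unadjusted p under 0.05.

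Markers of other cells moved with some of these groups. The valve surface was swabbed to take off endothelial cells when the paVICs were isolated. The summed level of the 7 endothelial genes was 98.0 to 108 CPM in vehicle, 75.4 to 78.6 CPM with LPC, 56.3 to 74.5 CPM with dantrolene, and 62.0 to 71.1 CPM with LPC + dantrolene. The sum of the 7 smooth muscle and pericyte genes, 3 of which are also in the contractile or the regulator list, was 827 to 1349, 600 to 1209, 599 to 700, and 493 to 792 CPM in the same order. DES is part of this sum, with means of 582, 489, 237, and 188 CPM, so the sum is not separate from the DES result. The genes of the sum did not move alike, since CSPG4 had means of 268, 195, 188, and 257 CPM and NOTCH3 63.4, 41.4, 56.1, and 80.7 CPM. Of the striated muscle genes 6 of 9 were in the table, and their sum was 2.96 to 4.47 CPM in vehicle and 0.923 to 3.02 CPM with LPC. It was 1.64 to 2.51 CPM with dantrolene and 1.55 to 2.37 CPM with LPC + dantrolene, so these libraries lay below vehicle, but the lowest sum was that of an LPC library. The sum was mostly CKM and ACTC1, and ACTC1 is also in the list of paralogs. CKM had means of 2.27, 1.14, 1.58, and 1.55 CPM, and ACTC1 1.45, 0.466, 0.321, and 0.122 CPM, in the same order. ACTA1, which is not part of this sum, ranged from 17.8 to 466 CPM over all libraries. The part of other cells in the differences of ACTA1, DES, and CALD1 was not tested, and in these bulk libraries fewer cells of a type and less RNA per cell cannot be told apart.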

How the data were processed

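RNA was measured in 12 libraries of paVICs in 4 groups of 3. The authors aligned the reads and counted them per gene. The paper names STAR, while the submitters' processing notes list HISAT2 2.0.5, R 4.1.1, DESeq2 1.32.0, and genome build Sscrofa11.1, and which aligner made the deposited table is not settled here. The counts were adjusted for the isolation with ComBat and deposited as whole-number counts, not scaled for library size. The deposited tables of the authors' own comparisons hold DESeq2 fold changes and p-values and were not used.

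Counts were fitted in R 4.3.3 with edgeR 4.0.16 (filterByExpr, TMM, a quasi-likelihood model of all 12 libraries with group as the term). Adjusted p-values (Benjamini-Hochberg) cover all 13216 genes tested, and a call is an adjusted p under 0.05. Comparisons were the 3 treatments with vehicle, the combined treatment with either agent alone, and the interaction. Correlations used log2 CPM with a prior count of 2. Counts simulated for LPC against vehicle over 12949 genes gave back 80 of 100 genes changed 4-fold and 9 of 48 changed 2-fold, so differences near 2-fold were mostly missed in that simulation. It changed 200 randomly chosen genes, while 1129 genes were called higher with LPC in the data. It therefore does not give the detection rate for the members. Intervals around a fold change cover the spread between libraries only.

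The members were always named, list genes were named where called except for 2 of the contractile list, which were called with smaller adjusted p-values than those named and are not reported here, and the 5 genes most like ACTA2 were named by rank. The members and lists were chosen with earlier results of these data known. Gene positions are those of RefSeq on Sscrofa11.1. The position of MYH11, transcript lengths, and promoter and protein sequences were not used here.

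Replicate numbers mark separate isolations of cells, each pooled from several hearts, and were taken as pairs. Deviations from the group means had a median correlation of −0.152 between libraries of the same isolation (range −0.536 to 0.207). The counts had been adjusted for the isolation before deposit, so this value cannot show whether the pairs are right. Alternatives were DESeq2 1.42.0, other scalings (RLE, or library totals alone), other filters (none, or 10 or more counts in every library), a fit of only those groups that were compared, a block for the isolation, and leaving out each library in turn. A fit without replicate 2 of LPC + dantrolene and with the block, and correlations without that library, were added after seeing the data.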

Additional observations from a re-analysis of the deposited data

Results flagged for a closer look

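The fitted difference made by LPC in CALD1 was lower with dantrolene than without it, a call made for 4.49% of all genes. The log2 interaction was −1.79 (SE 0.48, edgeR adjusted p = 0.0143), from a log2 fold change of 1.20 for LPC against vehicle and −0.59 for LPC + dantrolene against dantrolene. In isolations 1, 2, and 3 the log2 ratio of LPC + dantrolene to dantrolene was 0.29, −2.13, and −0.51, and that of LPC to vehicle was at least 1.04. Isolation 2 of LPC + dantrolene is the library that stood apart from its group for ACTA2, TAGLN, MYH11, and MYL9. For ACTG2 and CNN1 isolation 3 was the library farthest from the others of the group. The call was lost without vehicle replicate 2 (adjusted p = 0.0767), LPC replicate 1 (0.0517), LPC replicate 2 (0.0935), or dantrolene replicate 2 (0.111). It was also lost without LPC + dantrolene replicate 2 with the isolation as a block. Over all genes, 593 interactions were called below 0. That count was 4 without LPC replicate 2, 31 without dantrolene replicate 2, and 889 without LPC + dantrolene replicate 3.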

How the results depend on the processing

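Of 60 pairs of a member and a comparison, 5 were called, and 1 of these, ACTA1 with dantrolene against vehicle, was called in all 20 alternatives, with an adjusted p of at most 0.0346. In 48 pairs no fit gave a call, and 24 uncalled pairs changed sign in at least 1 alternative. The count of members called higher with LPC was 1 and ranged from 0 to 1 with each library left out. The count called lower with dantrolene was 1, was 2 when only the groups compared were fitted, and ranged from 1 to 2 with each library left out, CNN1 being the added gene. The count called lower with LPC + dantrolene against vehicle was 1, was 0 with DESeq2, 2 with at least 10 counts in every library, and 6 without replicate 2 of that group and with the block, and ranged from 1 to 6 with each library left out. Against LPC it was 1, was 0 with DESeq2, with total counts alone, and when only the groups compared were fitted, and ranged from 0 to 1 with each library left out. Without LPC + dantrolene replicate 1 the member called was CALD1 and not ACTA1. The count of interactions below 0 was 1, ranged from 0 to 1 with each library left out, and was 0 without replicate 2 of LPC + dantrolene with the block. The cause of these changes was not tested.

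With the isolation as a replicate block, the count of members called lower with LPC + dantrolene against LPC went from 1 to 0 (ACTA1), and the block changed no other call of a member. Depth did not limit these genes, whose lowest value was 17.8 CPM.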
